A study of Mus musculus with 10 samples.

Results

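The genes described here are 10 pluripotency genes: Pou5f1, Nanog, Klf4, Klf2, Lin28a, Lin28b, Zfp42, Sall4, Prdm14 and Dppa3. They were listed by name, with earlier results of these data known, among 21883 protein-coding genes of the mouse gene table. All 10 were found in the table. Histone H3 modifications were mapped at them by chromatin immunoprecipitation and sequencing (ChIP-seq) in Glast+ cells, taken from retinas of C57BL/6 mice at postnatal day 28 (P28), in a series that maps chromatin state in murine Müller glia. Glast, the product of Slc1a3, is a glutamate transporter by which Müller glia, the support glia that span the retina, can be sorted. The 4 ChIP groups were H3K4me3, H3K4me1, H3K27me3 and H3K9me3, each with 2 experiments called Exp1 and Exp2, and all groups shared the same strain, age, tissue and selection, with no treatment or mutant allele named. The labels name the marker by which cells were selected but not the animals behind each experiment, so differences between Exp1 and Exp2 can be technical, and no test between samples was made.

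Pou5f1 (Oct4), Nanog, Sall4 and Prdm14 encode transcriptional regulators that hold embryonic stem cells in the pluripotent state, and Klf4 and Klf2 encode zinc finger factors that act beside them. Zfp42 (Rex1) and Dppa3 (Stella) are widely used markers of that state, and Lin28a and Lin28b encode RNA-binding proteins that block the maturation of let-7 microRNAs. In zebrafish, Müller glia that re-enter the cell cycle after injury induce lin28a, while mammalian Müller glia seldom regenerate neurons. H3K4me3 is found at active or permissive promoters and H3K4me1 around promoters and at enhancers. H3K27me3 is deposited by Polycomb complexes at silent developmental genes, and H3K9me3 marks heterochromatin.

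The data are lists of islands, stretches of the genome in which a mark was enriched, with 1 list per ChIP library and a p-value for each island that is the authors' own. For a mark to be called at a gene, islands of both experiments had to touch the same gene end, taken with 1 kb on either side, by at least 1 bp. In Exp1 and Exp2, H3K4me3 had 16761 and 20169 islands, H3K4me1 had 52342 and 37200, H3K27me3 had 7743 and 4105, and H3K9me3 had 9690 and 5621. Widths were multiples of 200 bp for the H3K4 marks, 5000 bp in the H3K27me3 lists and 3000 bp in those of H3K9me3, and median widths were 2.4 to 3.2 kb for the H3K4 marks and 30 to 80 kb for the other marks. An island of H3K27me3 or H3K9me3 can therefore reach a gene end from far away. Read depth is unknown because the lists hold no counts. Islands sum over many cells, so marks that meet at 1 end can come from different cells, and fewer cells with a mark cannot be told apart from less of the mark per cell. Of 12 Müller glia markers, 10 had H3K4me3 at an end (83.3%, against 58.6% of all protein-coding genes), among them Slc1a3, while Aqp4 had no mark. H3K4me3 also lay at 4 of 6 rod markers (66.7%), near the share of all genes. It lay at 1 of 5 endothelial markers (20%), 2 of 6 primordial germ cell markers (33.3%) and 0 of 5 microglia markers. The part of other cells in the results was not tested.

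RefSeq promoters (250 bases before to 50 after a start, GRCm38.p6, the assembly whose coordinates mm10 shares) were matched for 7 of the 10 genes. There was no entry for Sall4, Prdm14 and Dppa3. Pou5f1 and Nanog had 2 entries each, of which the first is shown. The promoters of 3 genes whose start lay in an H3K4me3 island in both experiments are shown first, then those of 3 genes whose start lay in none. CpG dinucleotides, the letters that recruit the H3K4 methylation machinery when unmethylated, are in capitals, and each sequence is read 5′ to 3′ on the strand of the gene.
Klf4 promoter, chr4:55532426-55532725, minus strand: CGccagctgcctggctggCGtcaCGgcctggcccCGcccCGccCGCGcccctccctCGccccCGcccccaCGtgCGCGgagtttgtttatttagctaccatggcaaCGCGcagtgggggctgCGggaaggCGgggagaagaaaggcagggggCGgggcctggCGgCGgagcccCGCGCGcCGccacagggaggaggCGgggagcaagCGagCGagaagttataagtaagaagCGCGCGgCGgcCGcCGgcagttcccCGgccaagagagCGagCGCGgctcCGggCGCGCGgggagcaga
Klf2 promoter, chr8:72318812-72319111, plus strand: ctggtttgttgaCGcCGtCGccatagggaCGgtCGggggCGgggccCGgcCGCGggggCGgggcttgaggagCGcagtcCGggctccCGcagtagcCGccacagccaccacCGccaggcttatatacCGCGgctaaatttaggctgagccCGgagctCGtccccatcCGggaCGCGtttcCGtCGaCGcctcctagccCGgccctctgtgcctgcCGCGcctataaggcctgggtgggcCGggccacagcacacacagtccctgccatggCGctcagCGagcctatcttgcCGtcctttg
Lin28a promoter, chr4:134018767-134019066, minus strand: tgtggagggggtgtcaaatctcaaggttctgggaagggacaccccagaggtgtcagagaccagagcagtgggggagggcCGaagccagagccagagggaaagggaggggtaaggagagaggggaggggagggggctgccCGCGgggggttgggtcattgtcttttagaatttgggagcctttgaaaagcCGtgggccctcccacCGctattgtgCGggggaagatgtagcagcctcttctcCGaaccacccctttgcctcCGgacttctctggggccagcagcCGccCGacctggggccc
Pou5f1 promoter, chr17:35505782-35506081, plus strand: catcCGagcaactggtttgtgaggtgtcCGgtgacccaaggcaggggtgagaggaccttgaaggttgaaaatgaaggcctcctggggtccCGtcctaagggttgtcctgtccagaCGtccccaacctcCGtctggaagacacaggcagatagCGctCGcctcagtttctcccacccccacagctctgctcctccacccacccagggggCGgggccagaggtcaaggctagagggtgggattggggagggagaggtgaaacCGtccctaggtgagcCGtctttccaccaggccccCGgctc
Nanog promoter, chr6:122707239-122707538, plus strand: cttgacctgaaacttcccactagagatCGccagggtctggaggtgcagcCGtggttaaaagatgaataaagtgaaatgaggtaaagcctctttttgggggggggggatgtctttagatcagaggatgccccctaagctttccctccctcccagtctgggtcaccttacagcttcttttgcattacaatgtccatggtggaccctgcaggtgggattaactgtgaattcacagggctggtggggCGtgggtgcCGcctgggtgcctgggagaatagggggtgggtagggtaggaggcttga
Zfp42 promoter, chr8:43306960-43307259, minus strand: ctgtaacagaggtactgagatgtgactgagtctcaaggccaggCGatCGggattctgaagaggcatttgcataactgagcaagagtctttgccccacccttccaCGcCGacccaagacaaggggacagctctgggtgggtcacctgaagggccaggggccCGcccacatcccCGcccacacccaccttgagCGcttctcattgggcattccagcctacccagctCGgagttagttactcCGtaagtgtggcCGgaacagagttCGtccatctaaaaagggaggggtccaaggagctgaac

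The 10 genes fell into 6 combinations of marks. Klf4, Klf2 and Lin28a carried H3K4me3 with H3K4me1 and no repressive mark, the combination of 42.8% of all protein-coding genes. Lin28b carried H3K4me3, H3K4me1 and H3K27me3 and no other called mark, found at 4.69% of all genes. Pou5f1 and Sall4 carried H3K4me1 with H3K27me3 and no other called mark, so without H3K4me3, found at 1.78% of all genes. Zfp42 carried both repressive marks and neither H3K4 mark, as did 9.66% of all genes. Prdm14 and Dppa3 carried H3K27me3 alone, found at 5.06% of all genes, and Nanog had no mark that was present in both experiments.

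By mark, H3K4me3 lay at an end of 4 of the 10 genes, against 58.6% of all protein-coding genes, and H3K4me1 at 6 of 10, against 54.5%. H3K27me3 lay at 6 of 10 genes, against 23.3% of all genes, and H3K9me3 at 1 of 10, against 13.4%. H3K4me3 and H3K27me3 met at the same end in 1 gene of 10, Lin28b, against 5.74%. No mark was found at 1 of 10, Nanog, against 19.5%. In Exp1 alone the counts were 4 for H3K4me3 (59.5% of all genes), 6 for H3K4me1 (66.2%), 6 for H3K27me3 (29.3%) and 2 for H3K9me3 (16.7%). In Exp2 alone they were 5 for H3K4me3 (60.6% of all genes), 6 for H3K4me1 (56.5%), 7 for H3K27me3 (27.1%) and 1 for H3K9me3 (14.8%). Exp2 added calls of H3K4me3 at Sall4 and H3K27me3 at Nanog, and Exp1 added H3K9me3 at Lin28b.

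**Figure D1:**
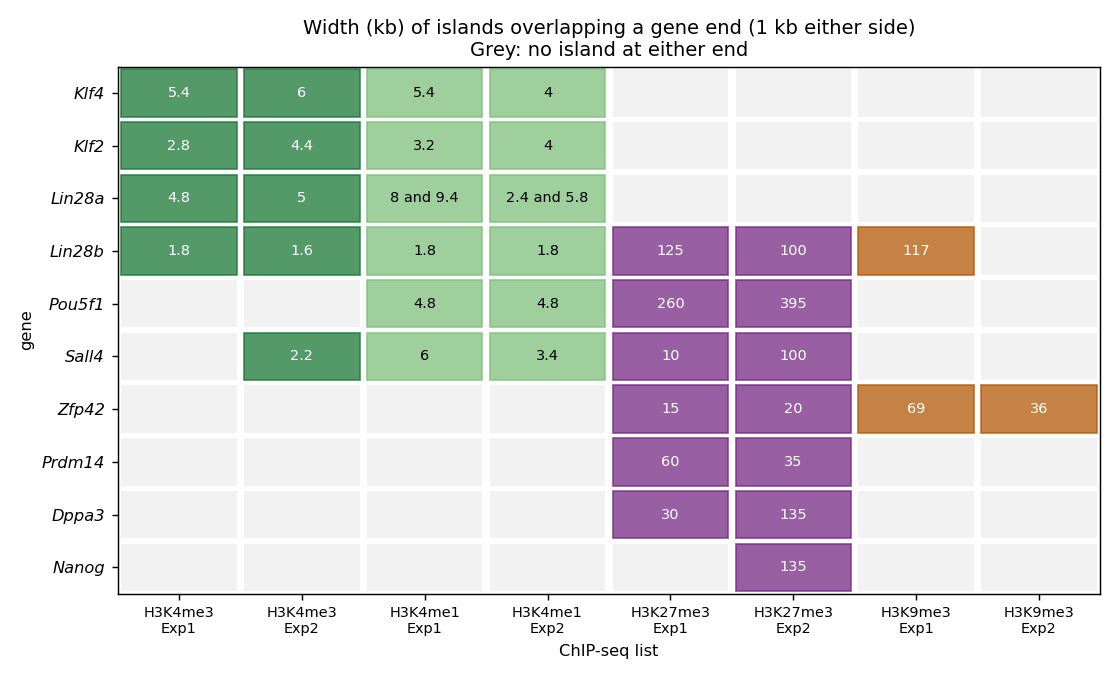
Widths in kb of the islands that overlapped the window of 1 kb either side of a gene end, for each of the 10 genes (vertical axis) in each of the 8 lists (horizontal axis); grey cells had no island. Klf4, Klf2 and Lin28a fill the H3K4 columns and leave the others empty, Lin28b, Pou5f1 and Sall4 fill columns of both kinds, and the lowest 4 genes have repressive islands and no H3K4 island.

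Of the H3K4me3 islands at the ends of the 10 genes, that of Klf4 had the lowest p-value in both lists. Its gene lies at chr4:55527137-55532475, and the H3K4me3 island over its start was 5.4 kb wide in Exp1 (island p-value 4.42e-288) and 6.0 kb wide in Exp2 (island p-value 1.46e-263). These islands were wider than 84.2% and 94.3% of the islands in their own lists. H3K4me1 lay over the same start in islands of 5.4 and 4.0 kb. No H3K27me3 island came nearer to Klf4 than 318 kb in Exp1 and 822 kb in Exp2, so its neighbourhood was free of Polycomb islands in both experiments. Klf4 is one of the factors used to reprogramme fibroblasts and is also expressed in many differentiated tissues.

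Klf2, a zinc finger factor known in stem cells and in endothelium, lies at chr8:72319062-72321654. Its H3K4me3 island was 2.8 kb wide in Exp1 (island p-value 2.79e-173) and 4.4 kb in Exp2 (island p-value 3.22e-152), and began 0.661 kb before the start in both. H3K4me1 islands of 3.2 and 4.0 kb lay over the same end. A further H3K4me1 island without H3K4me3 lay 5.26 kb from the gene in Exp1 and 5.46 kb in Exp2, with widths of 4.2 and 2.4 kb. H3K27me3 and H3K9me3 islands came no nearer than 79.1 kb in either experiment.

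Lin28a, at chr4:134003330-134019196, stood out by the H3K4me1 around it. At the start, H3K4me1 formed islands of 9.4 kb in Exp1 (island p-value 3.61e-204) and 5.8 kb in Exp2 (island p-value 2.07e-52), whose p-values were below those of 97.2% and 95.6% of the islands in their lists. H3K4me3 at the same start was 4.8 kb wide in Exp1 (island p-value 3.81e-72) and 5.0 kb in Exp2 (island p-value 1.08e-45). These H3K4me3 islands were wider than most, 78.0% and 90.0% of their lists being narrower, yet only 33.2% and 39.5% of islands had a larger p-value. In its list, the start of Lin28a thus ranked high for H3K4me1 and below the middle for H3K4me3 by p-value. The other end of the gene also had H3K4me1, in islands of 8.0 and 2.4 kb. They overlapped H3K4me3 islands that lay 1.13 kb outside the gene in Exp1 and 1.73 kb in Exp2. Farther out, an H3K4me1 island of 15.4 kb in Exp1 and islands of 4.8 and 5.6 kb in Exp2 also overlapped H3K4me3. A pair of H3K4me1 islands without H3K4me3 lay 29 and 32.6 kb away in Exp1 and 28.6 and 33.2 kb in Exp2. In Exp2 the farther of the pair had an island p-value of 0.0237. The nearest H3K27me3 was 136 kb away in Exp1 and 276 kb in Exp2.

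Lin28b, the paralogue of Lin28a, lies at chr10:45376617-45486314 and was the gene of the set at which H3K4me3 and H3K27me3 met in both experiments. A narrow H3K4me3 island of 1.8 kb in Exp1 (island p-value 5.94e-92) and 1.6 kb in Exp2 (island p-value 2.14e-86) lay at its upper end, the end with the higher coordinate, together with H3K4me1 of 1.8 kb in both. H3K27me3 covered the same end in islands of 125 kb in Exp1 (island p-value 8.41e-122) and 100 kb in Exp2 (island p-value 9.36e-36). H3K9me3 reached that end in Exp1, in an island of 117 kb (island p-value 1.57e-65), while in Exp2 an island of 105 kb (island p-value 5.99e-19) began 8.69 kb beyond the gene. Of H3K9me3, Lin28b thus had a large island on the same side in both experiments, with a border that fell on different sides of the gene end. The RefSeq start listed for Lin28b lies inside the gene, 15 kb from the H3K4me3 island in Exp1 and 15.2 kb in Exp2, so the island lies at the outer end of the gene and not at that start.

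Pou5f1, the gene of the POU factor Oct4, lies at chr17:35506032-35510777 inside the widest H3K27me3 islands of the set. They spanned 260 kb in Exp1 (island p-value listed as 0) and 395 kb in Exp2 (island p-value 3.25e-145), wider than 94.2% and 95.3% of their lists, and covered the whole gene in both. Over the start itself lay H3K4me1 of 4.8 kb in both experiments (island p-values 2.8e-29 and 1.28e-21), reaching from 1.23 and 1.43 kb before the start to 3.57 and 3.37 kb after it. No H3K4me3 accompanied it: the nearest H3K4me3 island was 4.02 kb beyond the gene in Exp1 and 5.22 kb in Exp2, on the side of its neighbour Tcf19. A second H3K4me1 island without H3K4me3 lay 45.4 kb away in Exp1 and 44.4 kb in Exp2. An H3K9me3 island of 165 kb ended 22.0 kb from the gene in both lists, with p-values of 0.0339 in Exp1 and 0.237 in Exp2, so it passed 0.05 in 1 list of 2.

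Sall4, a zinc finger partner of Oct4, lies at chr2:168748332-168767201 and showed the same pair of marks at its upper end. H3K4me1 there was 6.0 kb wide in Exp1 (island p-value 5.82e-29) and 3.4 kb in Exp2 (island p-value 9.68e-18). H3K27me3 differed in extent, with an island of 10 kb in Exp1 (island p-value 2.55e-62) (2.97% of its list was narrower) and one of 100 kb in Exp2 (island p-value 7.68e-30). H3K4me3 was found at that end in Exp2 only, in an island of 2.2 kb (island p-value 0.00023) whose p-value was larger than those of most islands in its list, with 9.27% larger still. In Exp1 the nearest H3K4me3 island was 4.33 kb beyond the opposite end, toward the neighbour Atp9a.

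Zfp42, the Rex1 gene at chr8:43295067-43307009, was the gene of the set with both repressive marks in both experiments. H3K27me3 lay over its start in islands of 15 kb in Exp1 (island p-value 1.85e-40) and 20 kb in Exp2 (island p-value 6.85e-23), which reached 2.01 kb into the gene in both. H3K9me3 covered the start in islands of 69 kb (island p-value 7.63e-70) and 36 kb (island p-value 5.89e-39) and extended over most or all of the gene. No H3K4me3 island overlapped the gene, but wide ones lay upstream, of 6.2 kb in Exp1 (island p-value 1.64e-17) and 7.2 kb in Exp2 (island p-value 9.19e-16), at 8.59 and 6.39 kb before the start. These upstream islands were wider than 89.8% and 97.0% of their lists, while 15.4% and 27.2% of islands had a larger p-value.

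Prdm14, which represses DNA methyltransferase genes in naive stem cells and specifies primordial germ cells, lies at chr1:13113428-13127163. H3K27me3 covered the whole gene in islands of 60 kb in Exp1 (island p-value 4.93e-63) and 35 kb in Exp2 (island p-value 3.86e-29). No H3K4me3 island came nearer than 120 kb in either experiment, the greatest distance among the 10 genes, and no H3K4me1 island nearer than 42.8 kb. Within 50 kb of Prdm14, H3K4 methylation was thus limited to 1 H3K4me1 island in Exp1.

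Dppa3 and Nanog lie on the same stretch of chromosome 6, at chr6:122626424-122630271 and chr6:122707489-122714633. Dppa3 encodes Stella, which protects the maternal genome from demethylation in the zygote, and Nanog encodes the homeodomain factor of naive cells. In Exp1, Dppa3 lay in an H3K27me3 island of 30 kb (island p-value 3.54e-08), which ended 62.5 kb before Nanog. In Exp2, 1 island of 135 kb covered both genes (island p-value 0.000465). The p-values of these islands were larger than those of most of their lists, with 9.85% and 7.58% larger still, and they were the largest H3K27me3 p-values at the set's genes. The nearest H3K4me3 was 23.4 kb from Dppa3 in Exp1 and 10.2 kb in Exp2, and 25.4 kb and 6.09 kb from Nanog. The nearer islands of Exp2 had p-values of 0.00606 and 0.000311 and had no counterpart at these places in Exp1. The gene table also names retrocopies or pseudogenes of Pou5f1, Nanog, Zfp42 and Dppa3, and how reads from near-identical copies were assigned is not stated in the labels or notes used here.

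**Figure D2:**
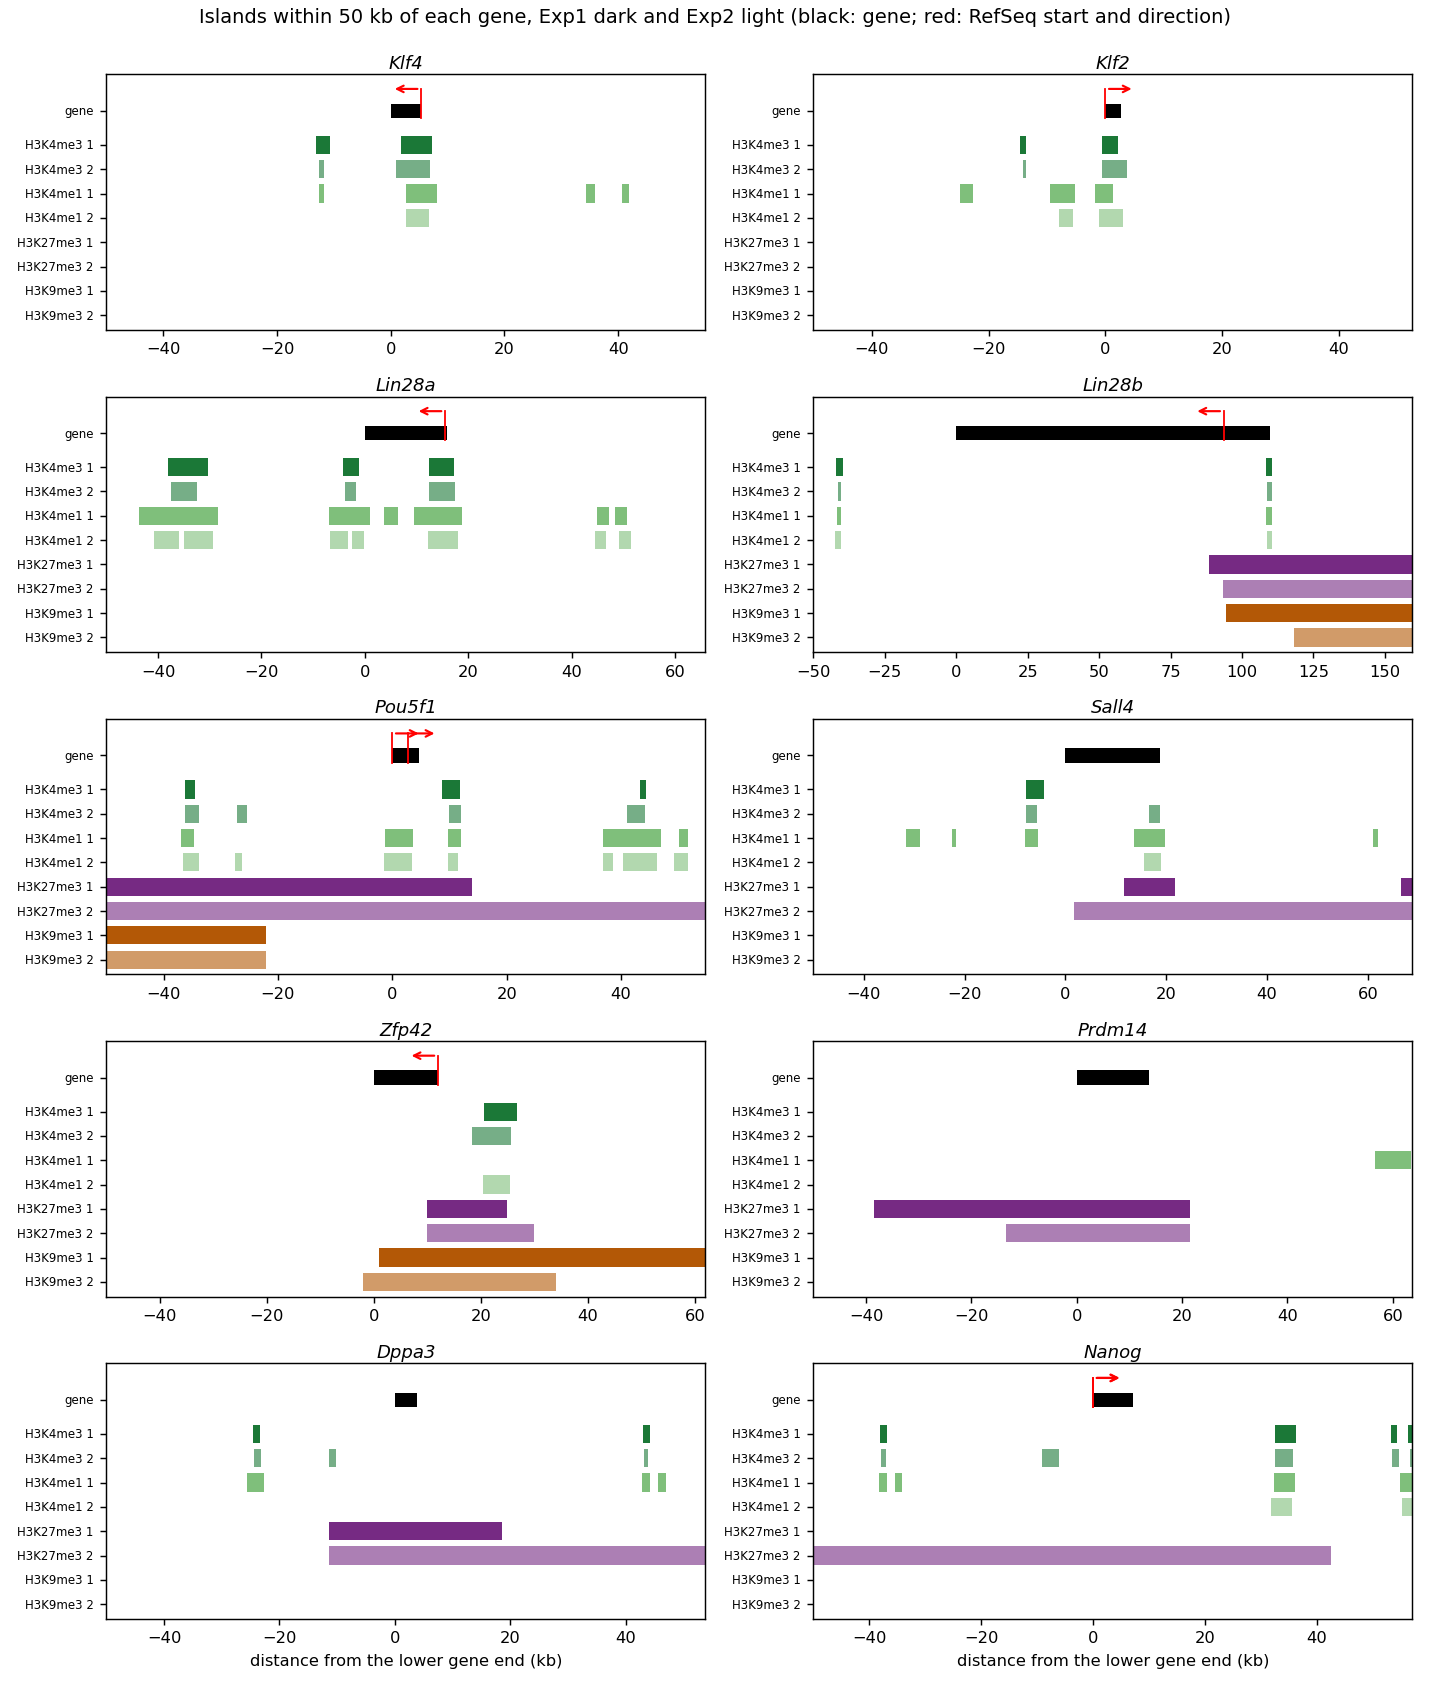
Islands of the 4 marks within 50 kb of each gene, as distance in kb from the gene end with the lower coordinate (horizontal axis), with Exp1 in dark and Exp2 in light colour, genes in black, and RefSeq starts with their direction in red. H3K27me3 islands run across Pou5f1, Prdm14 and Dppa3, cover the start side of Zfp42 and Lin28b, and are missing around Klf4, Klf2 and Lin28a.

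Over the gene and 50 kb either side, H3K27me3 coverage was 0% in both experiments at Klf4, Klf2 and Lin28a, a value shared by 42.4% of all genes. Pou5f1 was covered over 61.1% in Exp1 and 100% in Exp2, a mean of 80.5% ± 27.5 (SD, n = 2) that was higher than that of 86.6% of all genes. Prdm14 had 52.8% and 30.8%, Dppa3 28.9% and 62.9%, Lin28b 34.0% and 31.6%, Sall4 10.3% and 56.5%, and Zfp42 13.4% and 17.9%, against medians over all genes of 5.44% in Exp1 and 0% in Exp2. Lin28b and Zfp42 were thus alike in both experiments, while Sall4, Dppa3 and Pou5f1 were covered further in Exp2 and Prdm14 in Exp1. Nanog varied most, with 0% in Exp1 and 86.3% in Exp2.

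H3K4 methylation was spread differently over these regions. Lin28a had the highest H3K4me1 coverage of the set, 34.7% in Exp1 and 23.0% in Exp2, followed by Pou5f1 with 20.2% and 20%, against medians over all genes of 14.1% in Exp1 and 7.17% in Exp2. The other 8 genes averaged 7.80% or less. The coverage around Lin28a included H3K4me1 islands that overlapped H3K4me3 islands outside the gene. H3K4me3 covered 13.6% and 10.5% around Lin28a and 0% around Prdm14, against medians of 4.42% in Exp1 and 3.94% in Exp2. H3K9me3 covered 54.5% and 32.2% around Zfp42, 31.1% and 19.7% around Lin28b, and 26.7% in both experiments around Pou5f1. The other 7 genes had 0%, as did 57.2% of all genes.

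**Figure D3:**
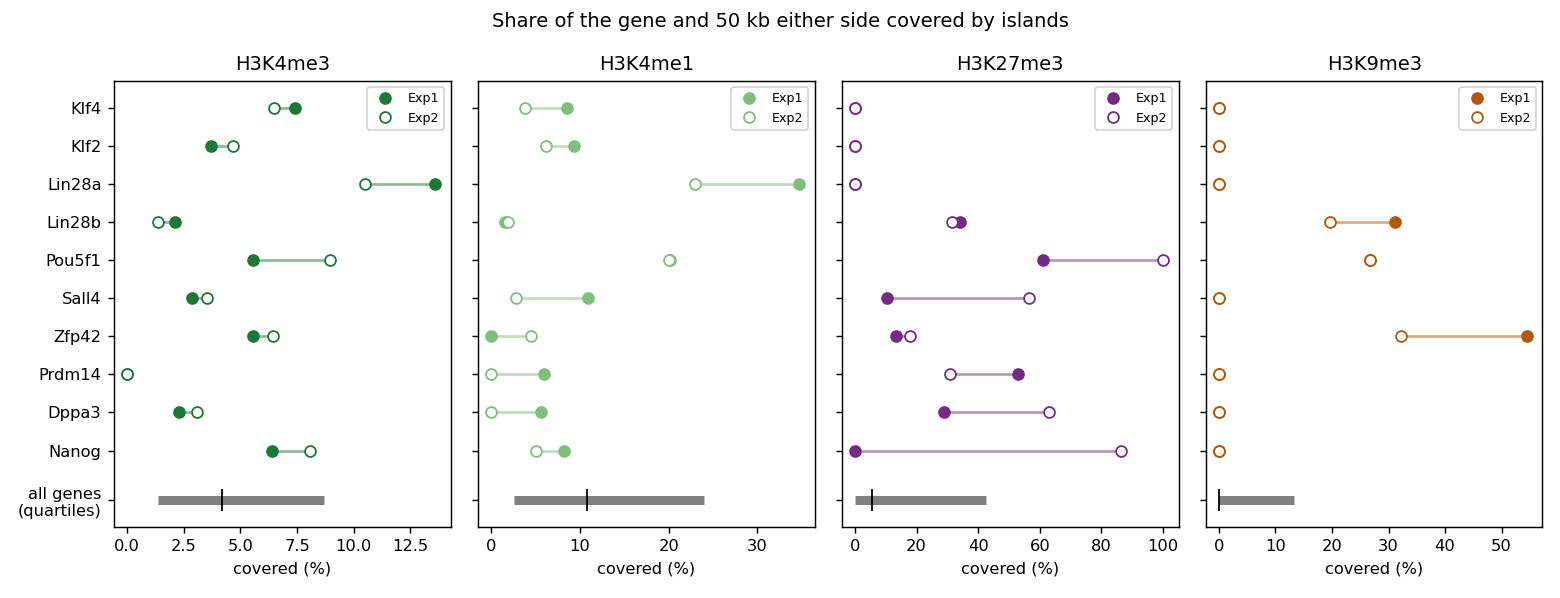
Percent of each gene with 50 kb either side covered by islands of each mark (horizontal axes), for the 10 genes in Exp1 (filled) and Exp2 (open), with the median and quartiles of the mean over all protein-coding genes as a grey bar. Lin28a has the highest coverage of the 10 genes for both H3K4 marks, and the distance between experiments is widest for H3K27me3 at Nanog.

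CpG content differed widely among the promoters, also among those with H3K4me3. Klf4 had 40 CpG in its 300 bases and Klf2 had 32, numbers reached by 5.08% and 12.6% of 21262 RefSeq promoters, whose median was 13. Lin28a had 10, fewer than the 11 at the printed start of Pou5f1 and the 11 of Zfp42, although its start carried H3K4me3 and theirs did not. A second RefSeq start of Pou5f1, also without H3K4me3, had 6 CpG, fewer than Lin28a. Nanog had 4, and at least that many were found in 76.1% of promoters. At the listed start of Lin28b there were 8. In promoters with 5 to 14 CpG, the class of Lin28a, Lin28b, Pou5f1 and Zfp42, H3K4me3 lay at 52.6% of starts and H3K27me3 at 17.2%. In the class of 0 to 4 CpG, that of Nanog, the shares were 9.21% and 38.6%, and in that of 30 or more, that of Klf4 and Klf2, they were 97.9% and 7.58%.

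Counted at RefSeq starts in place of both ends, H3K4me3 lay at 3 of the 7 genes with an entry (Klf4, Klf2 and Lin28a), against 60.2% of 17491 protein-coding genes with one. H3K27me3 lay at 3 of 7 (Pou5f1, Zfp42 and Lin28b), against 21.7%. At Lin28b the listed start was in H3K27me3 without H3K4me3, because the H3K4me3 island lay at the outer end.

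**Figure D4:**
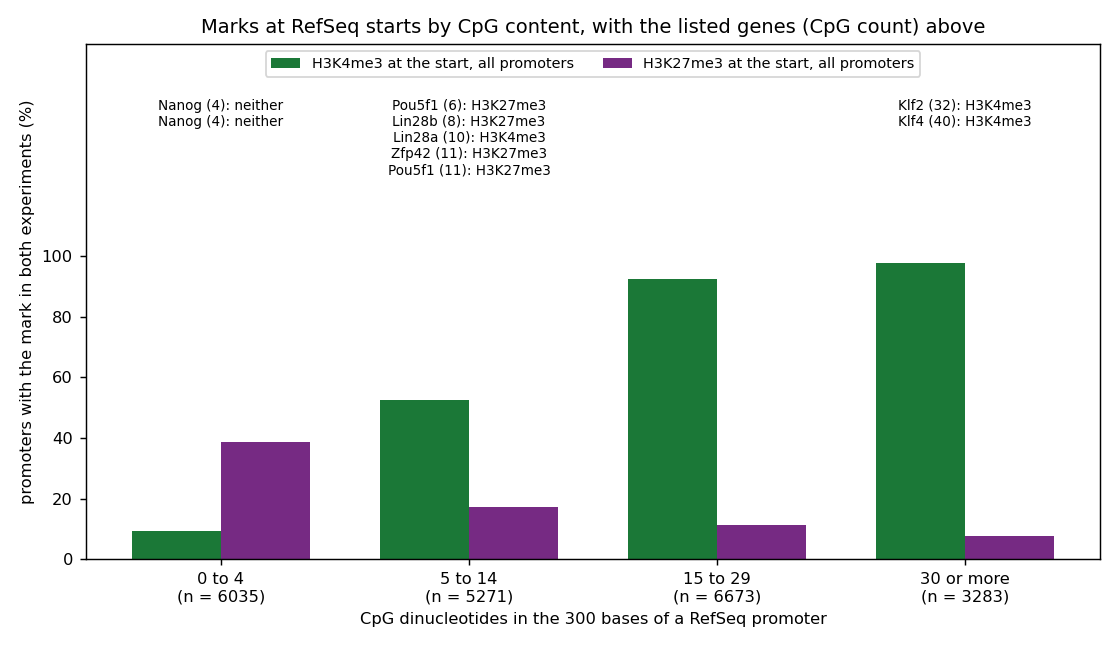
Percent of RefSeq promoters of protein-coding genes with H3K4me3 or H3K27me3 at the start in both experiments (vertical axis), by number of CpG in their 300 bases (horizontal axis), with the listed genes, their CpG numbers and their marks above each class. Klf4 and Klf2 stand in the class where 97.9% of starts had H3K4me3, and Lin28a shares its class with Lin28b, Pou5f1 and Zfp42.

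Of the 10 genes, 8 had a protein-coding neighbour within 50 kb, and of these 15 neighbours 11 had H3K4me3, 9 H3K4me1, 3 H3K27me3 and 1 H3K9me3 at an end in both experiments. All protein-coding genes had these marks at 58.6%, 54.5%, 23.3% and 13.4%. Nanog, without an H3K4 methylation island at its ends, lies 13.2 kb from Slc2a3, a glucose transporter gene with H3K4me3 and H3K4me1. Prdm14 lies 11.9 kb from Ncoa2 and Sall4 5.96 kb from Atp9a, both with H3K4me3 alone, at Ncoa2 on its far end, since the nearest H3K4me3 island was 120 kb from Prdm14. Dppa3 lies 16.3 kb from Gdf3, which encodes a TGF-beta family ligand and had no mark. Pou5f1 lies 1.95 kb from Tcf19, which had H3K4me3, H3K4me1 and H3K27me3 and sat in the same H3K27me3 island. Lin28a lies 2.37 kb from Dhdds, Lin28b 4.13 kb from Bves and Klf2 19.3 kb from Eps15l1, and all of these neighbours had H3K4me3 with H3K4me1.

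Of 26 other genes of the pluripotency network, 11 had H3K4me3 and 6 H3K27me3 in both experiments. H3K4me1 lay at 15 (57.7%, near the 54.5% of all protein-coding genes) and H3K9me3 at none, against 13.4%. No mark was found at 8 (30.8%, against 19.5%). Tfcp2l1, Klf5 and Zfp296, transcription factors of naive cells, had H3K4me3 with H3K4me1. Tdgf1, Dppa2, Dppa4 and Dppa5a had no mark. Sox2, which Müller glia also express, and Tbx3 had H3K4me3, H3K4me1 and H3K27me3 together. Esrrb had H3K4me1 alone and Nr5a2 had H3K27me3 alone. H3K4me3 lay at 40% of the 10 genes, 42.3% of the wider network and 58.6% of all protein-coding genes, and H3K27me3 at 60%, 23.1% and 23.3%.

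Leukaemia inhibitory factor and BMP are the signals that sustain pluripotency in culture. Of 13 genes of their pathways, 10 had H3K4me3 (76.9%, against 58.6% of all protein-coding genes), 12 H3K4me1 (92.3%, against 54.5%) and 3 H3K27me3 (23.1%, against 23.3%). None of the 13 was without a mark, against 19.5% of all protein-coding genes. The receptor genes Il6st and Bmpr1a, the transcription factor gene Stat3 and its feedback inhibitor Socs3 had H3K4me3 with H3K4me1. The ligand gene Lif and the receptor gene Lifr had H3K4me1 alone, Jak1 had H3K4me3 alone, and the ligand gene Bmp4 had H3K4me1 with H3K27me3, as Pou5f1 and Sall4 did. Of 12 germ cell genes, 3 had H3K4me3 (25%, against 58.6% of all protein-coding genes) and 5 H3K4me1 (41.7%, against 54.5%). H3K27me3 lay at 3 of them (25%, near the 23.3% of all genes). Ddx4, Mael, Sycp3 and Piwil2 had no mark, Prdm1 had H3K4me3 with H3K4me1, Tfap2c had H3K27me3, Nanos3 had H3K4me1 and Nanos2 had H3K4me1 with H3K27me3.

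Lin28a and Lin28b act through let-7, so the genes of that pathway were examined. Of 14 genes for let-7 processing, Lin28 partners and let-7 targets, 12 had H3K4me3 (85.7%, against 58.6% of all protein-coding genes). All 14 had H3K4me1, against 54.5%, and 4 had H3K27me3 (28.6%, near the 23.3% of all genes). The nuclear processing genes Drosha and Dgcr8, the cytoplasmic nuclease gene Dicer1, and Tut4, which encodes a uridylyltransferase recruited by Lin28a, had H3K4me3 with H3K4me1. Dis3l2, which encodes the exonuclease that degrades uridylated let-7 precursors, had H3K4me1 alone. Trim71 and Hmga2, both let-7 targets, had H3K4me3, H3K4me1 and H3K27me3, the state of Lin28b. Igf2bp1 had H3K4me1 with H3K27me3.

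Among 12 genes of the let-7 family, 2 had H3K4me3 at an end, against 17.3% of 1228 microRNA genes, and 0 had H3K27me3, against 10.9%. The H3K4me3 genes were Mirlet7e and Mirlet7i, while Mirlet7a-1, Mirlet7b, Mirlet7c-2 and Mirlet7g had H3K4me1 alone. Mirlet7g and Mirlet7i were named after their values were seen, to complete these counts. The other 6, among them Mirlet7a-2, Mirlet7c-1, Mirlet7d and Mirlet7f-1, had no mark at the ends of the annotated gene, which need not lie near the start of the primary transcript. Shares of all microRNA genes with H3K4me1 or with no mark were not computed, so these counts have no background to be read against. The mature sequences below come from RefSeq (GRCm38.p6), with the seed, bases 2 to 8, in capitals. The 5p sequences shown, from marked genes, have the same seed, and so do those of unmarked genes such as Mirlet7d and Mirlet7f-1.
mmu-let-7e-5p of Mirlet7e, chr17:17830366-17830387, plus strand: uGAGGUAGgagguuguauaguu
mmu-let-7i-5p of Mirlet7i, chr10:122985698-122985719, minus strand: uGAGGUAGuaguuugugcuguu
mmu-let-7a-5p of Mirlet7a-1, chr13:48538239-48538260, minus strand: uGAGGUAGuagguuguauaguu
mmu-let-7g-5p of Mirlet7g, chr9:106178846-106178867, plus strand: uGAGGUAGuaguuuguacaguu

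Paralogues showed which states were shared within families. Of 17 Klf genes, 15 had H3K4me3 (88.2%, against 58.6% of all protein-coding genes) and 12 H3K4me1 (70.6%, against 54.5%). H3K27me3 lay at 1 (5.88%, against 23.3%). Klf4 and Klf2 had the state of most of their family, as did Klf1 and Klf5. Klf3, Klf6 and Klf7 had H3K4me3 alone and Klf8 had no mark. Klf14, named after its values were seen, was the 1 Klf gene with H3K27me3 and carried all 4 marks. Of 15 Pou genes, 6 had H3K4me3 (40%, against 58.6% of all protein-coding genes) and 7 H3K27me3 (46.7%, against 23.3%). The H3K4me1 with H3K27me3 of Pou5f1 recurred at Pou3f3, Pou4f2 and Pou4f3. Pou1f1, Pou3f4 and Pou5f2 had no mark, Pou2f1 had H3K4me3, Pou2f2 had H3K4me3 with H3K4me1, Pou2f3 had H3K4me1, and Pou3f1 had H3K4me3, H3K4me1 and H3K27me3. Sall1 and Sall3 had H3K4me3, H3K4me1 and H3K27me3 and Sall2 had H3K4me3 with H3K4me1, so Sall4 was the member of its family without H3K4me3 in both experiments.

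Prdm14 also differed from most of its family. Of 15 Prdm genes, 12 had H3K4me3 (80%, against 58.6% of all protein-coding genes), 11 H3K4me1 (73.3%, against 54.5%) and 7 H3K27me3 (46.7%, against 23.3%). H3K27me3 without H3K4me3 lay at 2 of the 15, against 3640 of 21883 genes. These were Prdm14 and Prdm6, of which Prdm6 carried H3K4me1 as well. Prdm1, Prdm4 and Prdm9 had H3K4me3 with H3K4me1, Prdm2 had H3K4me3, and Mecom and Prdm8 had H3K4me3, H3K4me1 and H3K27me3. Of 5 Dppa genes, Dppa3 was the one with a mark in both experiments. Dppa1, Dppa2, Dppa4 and Dppa5a had none, as did 19.5% of all protein-coding genes. The Dppa genes were named for their expression in pluripotent cells and are not all related by descent.

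**Figure D5:**
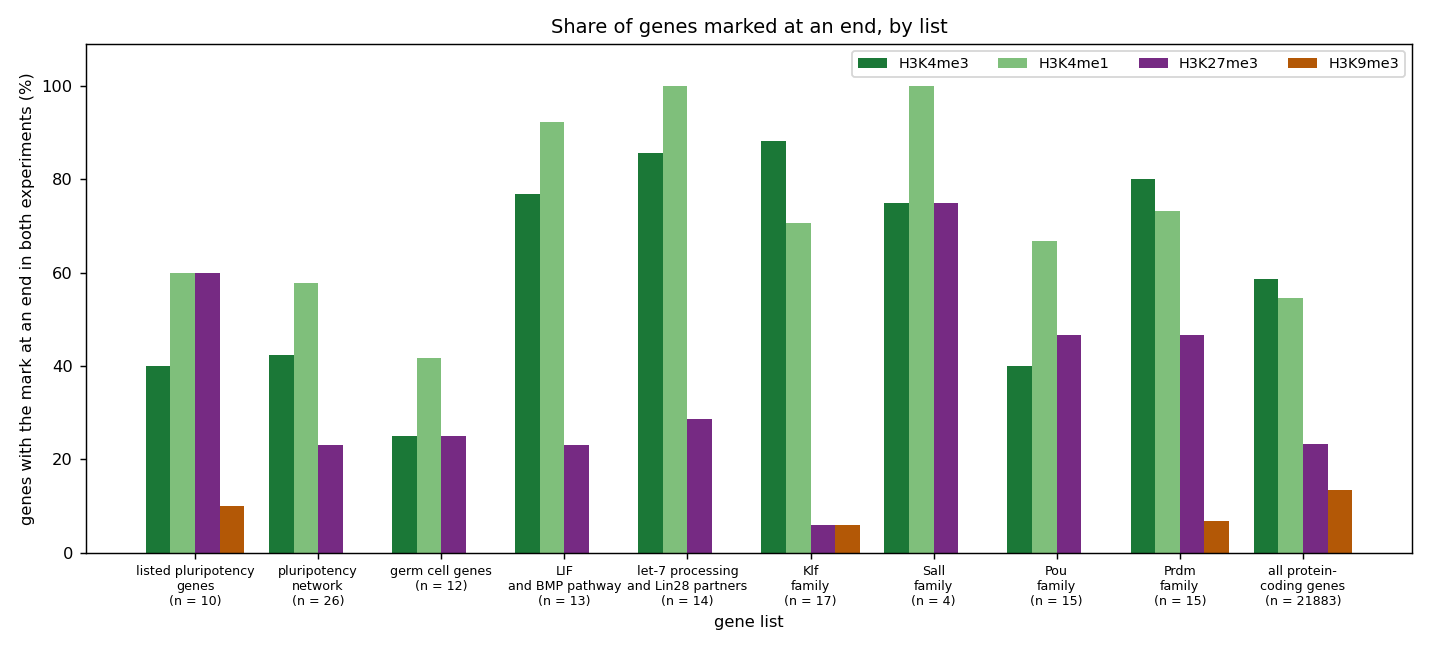
Percent of genes with each mark at an end in both experiments (vertical axis), for the 10 genes, the related lists and families, and all protein-coding genes (horizontal axis, with the number of genes in each). The 10 genes have H3K27me3 at 60% and H3K4me3 at 40%, while Klf genes have H3K4me3 at 88.2% and H3K27me3 at 5.88%.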

How the data were processed

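ChIP-seq libraries of 4 histone marks were compared at the listed genes. Per the labels, chromatin of 25000 fixed cells was used per immunoprecipitation, each library took 500 pg of DNA, and sequencing gave single-end reads of 50 bp. The submitters' processing notes name the build mm10 and the tools SICER, which joins enriched windows into islands, bedtools 2.17, SAMtools 1.3.1, BWA 0.7.5a and FastQC. For SICER, neither settings nor a control is given in the sources used here. The authors deposited, for each of 8 ChIP libraries, a list of islands in which every island has coordinates and a p-value. No source says if it was adjusted. P-values and widths were ranked within a list only. The 2 input libraries were not analysed here. Of the 10 libraries, samples were grouped by the mark in their titles.

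Islands were laid on the gene table of RefSeq GRCm38.p6 with Python 3.11.15, numpy 2.4.6 and pandas 2.3.3, and the overlap code was tested on simulated intervals. The table gives no strand, so windows were set at both ends of a gene, and an island of a neighbour can mark an end. Both ends were searched for the members and for all protein-coding genes on chromosomes 1 to 19, X and Y alike. Distances are from the nearer island edge. Distal H3K4me1 islands were those present in both experiments that no H3K4me3 island overlapped. CpG was counted in the printed 300 bases. No test was run on lists, since members and lists were chosen with earlier results of these data known. Named were all 10 members, the nearest protein-coding neighbour of each within 50 kb, and in each related list up to 4 genes of the commonest state (of each, where tied) and up to 4 of other states in list order, a few of which are not reported here. Promoters were shown for up to 3 members with and 3 without H3K4me3 at the start. The 11 alternatives changed the experiments required, the window, the region, the overlap, the island threshold and the end used.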

Additional observations from a re-analysis of the deposited data

How the results depend on the processing

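Windows of 500 bp or 2.5 kb, the whole gene with 1 kb either side, coverage of 50% of the window, and a limit of 0.05 on the island p-value gave the same counts for the 10 genes as the rule used. Keeping the part of each list with the lower p-values (up to its median) left H3K4me3 at 1 gene (Klf4), against 40.7% of all protein-coding genes in place of 58.6%. H3K4me1 stayed at 6 genes, against 32.3% of all genes in place of 54.5%. H3K27me3 lay at 5, against 18.8% in place of 23.3%, and H3K9me3 at 1, against 11.2% in place of 13.4%. H3K4me3 with H3K27me3 then lay at 0 genes and no mark at 2 (Nanog and Dppa3). At transcription starts, of 7 genes, H3K27me3 lay at 3, against 21.7% of genes with a RefSeq start, and H3K4me3 with H3K27me3 at 0. With a mark in either experiment, H3K9me3 lay at 2 genes, against 18.2% of all protein-coding genes. H3K4me3 with H3K27me3 then lay at 2 (Lin28b and Sall4), and no gene was without a mark (0). Over single experiments, H3K9me3 lay at 2 genes in Exp1, with Lin28b (16.7% of all genes), and at 1 in Exp2 (14.8%). H3K4me3 with H3K27me3 lay at 1 to 2 (2 in Exp2), and no mark at 0 to 1 (0 in Exp2, where Nanog lay in H3K27me3). Under the alternatives, shares of all genes were taken for single marks only. By the rule used, H3K4me3 with H3K27me3 lay at 5.74% of all genes and no mark at 19.5%. With the experiments as a replicate block, the states combined within each experiment first, 0 genes were without a mark in both. The counts for single marks (4, 6, 6 and 1) are the same under this rule by definition. Of the marks at single genes, 96 values stayed, among them those of the replicate block, which could not move, and 11 moved. Of the coverage values, 120 stayed within the spread between experiments and 40 moved. Values of single experiments lie within that spread by definition, so only the values with flanks of 10 or 100 kb could move. With 2 lists per mark and no read counts, whether an island missing from a list lay just under the caller's threshold cannot be told.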
